A study of Mus musculus with 4 samples.

Results

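Enzymes that write or remove methyl groups on lysine 36 of histone H3 (H3K36) were examined in mouse fibroblasts in which *Setd2* had been knocked down. They comprise 5 methyltransferase genes (*Setd2*, *Nsd1*, *Nsd2*, *Nsd3* and *Ash1l*) and 5 demethylase genes (*Kdm2a*, *Kdm2b*, *Kdm4a*, *Kdm4b* and *Kdm4c*), taken by gene symbol with every tested transcript, which gave 33 of 34200 transcripts and 10 of 21945 genes. NIH/3T3 cells, an immortalised line of mouse fibroblasts, received either a pair of *Setd2* siRNAs (KD) or Scrambled siRNA (WT), in both cases with Lipofectamine at 10 nM siRNA, and polyadenylated RNA was sequenced 48 h later from 2 libraries of each group. WT therefore names cells that were transfected too, and KD names a partial loss of the mRNA, since no allele was altered. Nothing in the labels says whether the 2 libraries of a group came from separate cultures, so the spread between these libraries may be technical. The p-values do not rest on that spread alone. Their error adds the variance of read assignment to a variance between libraries, which is replaced by its trend over transcripts where the trend is larger. The deposited tables combine the 4 libraries, so no value of a single library is given.

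H3K36 is methylated in steps. SETD2 adds the trimethyl mark (H3K36me3) and travels with elongating RNA polymerase II, while NSD1, NSD2, NSD3 and ASH1L make the mono- and dimethyl forms through the same type of catalytic fold, the SET domain. The KDM2 enzymes remove the lower forms and the KDM4 enzymes remove the higher forms at H3K36 (and at H3K9) with a JmjC domain, which holds iron through a histidine and an acidic residue. Several of these genes also make short proteins that lack the catalytic domain, and reads that could come from either kind have to be divided between transcripts.

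The stretches that code for the catalytic motifs are shown because transcripts of the same gene differ in whether they code for them. They were read from GENCODE M21 transcripts on GRCm38, 5′ to 3′ on the coding strand. In the methyltransferases the capitals mark the codons of the asparagine and histidine of the SET motif.

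Setd2-201: cgtttcatgAATCATagctgtgaaccaaac
Nsd1-201: cgcttcatgAATCACtgctgccagcctaat
Nsd2-203: cgattcatgAACCATagctgccagcccaat
Nsd3-206: cgtttcatgAACCACagttgtaatccaaac
Ash1l-202: agattcatcAACCACagctgtgacccaaat

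In the demethylases the capitals mark the codons of the iron-binding histidine and acidic residue of the JmjC motif.

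Kdm2a-201: actgacttcCATgtgGATtttggaggtact
Kdm2b-202: actgacttcCACattGACtttggaggcacc
Kdm4a-204: ttcgcctggCACacgGAAgacatggatcta
Kdm4b-201: tttgcctggCACacaGAGgacatggacctc
Kdm4c-201: tttgcgtggCACacgGAGgacatggatctc

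Each window lies in 1 coding exon: chr9:110562970-110562999 (+) for *Setd2*, chr13:55302878-55302907 (+) for *Nsd1*, chr5:33891545-33891574 (+) for *Nsd2*, chr8:25709102-25709131 (+) for *Nsd3* and chr3:89043597-89043626 (+) for *Ash1l*. The demethylase windows are chr19:4351770-4351799 (-) for *Kdm2a*, chr5:122949103-122949132 (-) for *Kdm2b*, chr4:118168426-118168455 (-) for *Kdm4a*, chr17:56355986-56356015 (+) for *Kdm4b* and chr4:74298564-74298593 (+) for *Kdm4c*. Among the 3 KDM4 genes, 25 to 27 of the 30 bases were identical between pairs, and among the 5 methyltransferases 21 to 25 were. The motif is absent from the coding sequence of 2 of the 4 tested *Nsd2* transcripts, 4 of the 8 of *Nsd3*, 1 of the 2 of *Nsd1*, 1 of the 4 of *Kdm2a* and 1 of the 5 of *Kdm2b*.

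The labelled cell type was checked on marker genes. All 10 fibroblast markers were tested, and 9 of them had summed levels from 2723 (*Pdgfrb*) to 346235 (*Col1a2*) normalised estimated counts in WT, while *Lum* was at 8.93. The summed WT level of the markers of other cell types was 119 for epithelial, 57.3 for endothelial, 361 for leukocyte and 5.33 for neural markers, and 4 of these 13 markers (*Epcam*, *Krt18*, *Map2* and *Gfap*) were not among the transcripts tested. Of the fibroblast markers, 3 genes had a higher and 3 a lower called transcript in KD (the latter *Col1a1*, *Col1a2* and *Col3a1*), and 0 markers of the other types had a called one. Their part in the results below was not tested.

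Knockdown of *Setd2* was the largest fall among the called member transcripts. Setd2-201 (ENSMUST00000153838.7, chromosome 9, 110532597 to 110618633) was at 3680.4 normalised estimated counts in WT and 923 in KD, with a log2(fold change) of −1.99 (standard error 0.09, likelihood ratio q = 0.0103). The within-group standard deviation was 0.05 on the log2 scale, and the 2 KD libraries could not overlap with the 2 WT libraries. That statement follows from the deposited effect and variance alone, which fix the sum of squares within groups. An effect whose size exceeds the square root of that sum leaves no room for overlap, and one below the square root of 0.5 times that sum cannot occur without overlap.

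Besides *Setd2*, transcripts of *Nsd2*, *Kdm4a* and *Kdm4b* rose and the transcript of *Kdm4c* fell. A transcript was called when the q-value of Sleuth's likelihood ratio test fell under 0.05. Of the 33 member transcripts, 7 were called, 5 higher and 2 lower in KD, where 12.5% of all transcripts tested were called, 7.26% as higher and 5.21% as lower. The called members were all among the 26 whose mean reached 100 normalised estimated counts (7 of 26), and of all transcripts at that level 21.4% were called. *Setd2* was the target of the siRNAs. Without it 6 of 32 member transcripts were called (18.75%), and 6 of the 25 at that level. The members' share was therefore not far from that of abundant transcripts, and the difference was not tested. The KD and WT libraries could not overlap for 16 member transcripts, against 54.8% of all transcripts, had to overlap for 12 and were undetermined for 5. The median log2(fold change) was 0.08 over the 33 member transcripts and −0.01 over all transcripts. The calls of the rises depend on the scale. *Actb*, the reference gene of the study's RT-qPCR, itself rose (log2(fold change) 0.46, standard error 0.11, q = 0.0310), and relative to it, a shift of −0.46 for all transcripts, the 5 rises stayed positive but none passed the Wald test (log2(fold change) 0.05 to 0.31, q = 0.0969 to 0.854). Both falls passed it on that scale, *Setd2* at −2.45 and *Kdm4c* at −0.84.

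**Figure D1:**
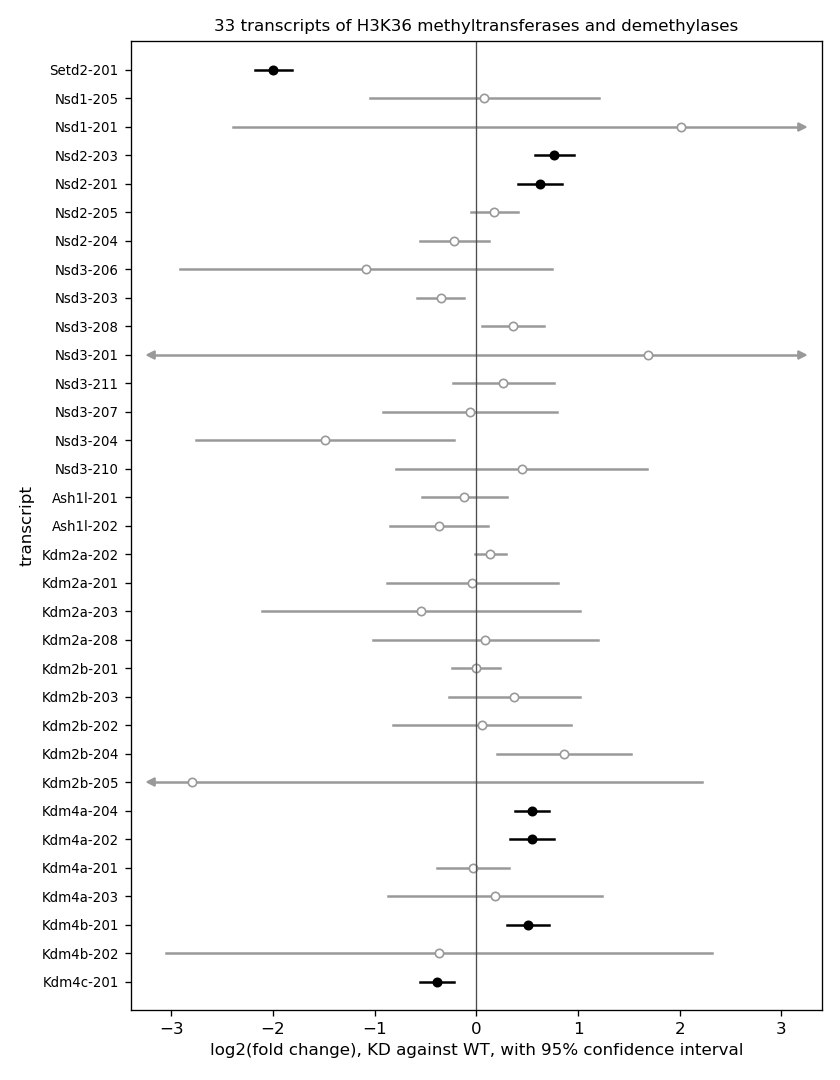
The log2(fold change) of KD against WT (x axis) for each of the 33 tested transcripts (y axis), with 95% confidence intervals from the deposited standard errors. Filled black points are the 7 transcripts with a likelihood ratio q-value under 0.05, open grey points the others, and arrowheads mark intervals that run past the axis, as for Nsd3-201 and Nsd1-201.

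**Figure D2:**
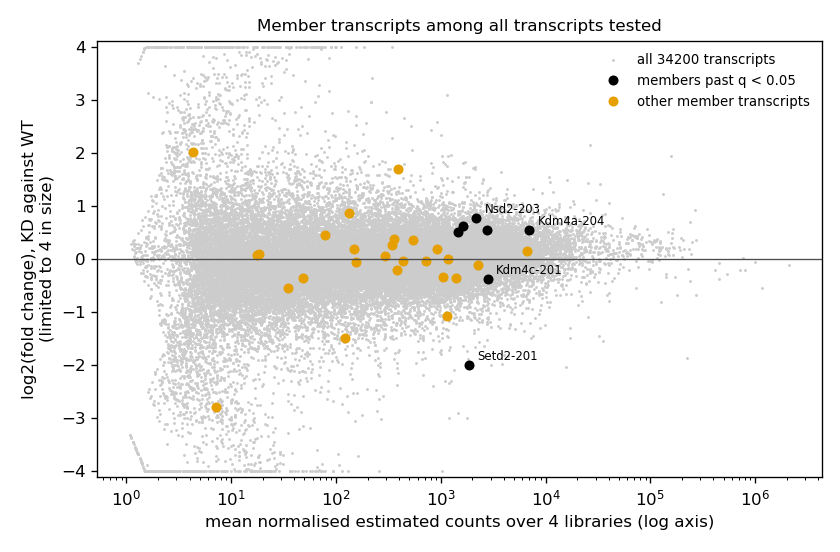
Log2(fold change) of KD against WT (y axis, limited to 4 in size) against the mean over 4 libraries (x axis, log scale) for all 34200 transcripts in grey, with the called members in black and the other members in orange. Setd2-201 lies at −1.99, well below the other called members, which lie between −0.39 and 0.77.

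Per kilobase of transcript, and summed over the tested transcripts of each gene, *Kdm4a* was the most abundant of the 10 genes in WT, at 1996 normalised estimated counts per kb, followed by *Kdm2a* (965), *Nsd3* (877), *Kdm4c* (769.8) and *Nsd2* (703). *Kdm2b* (472), *Setd2* (441), *Ash1l* (345) and *Kdm4b* (281) were lower. In KD, *Setd2* stood at 111 per kb, while *Nsd2* stood at 1027 and *Kdm4a* at 2799. The tested *Nsd1* transcripts summed to 20.2 per kb in WT, but 3 of the 5 basic protein-coding transcripts annotated for *Nsd1* were not analysed here, so this is no total for the gene. The errors of the transcripts of a gene are not independent and their covariance is unknown, so no error was computed for the sums and their order is a description.

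**Figure D3:**
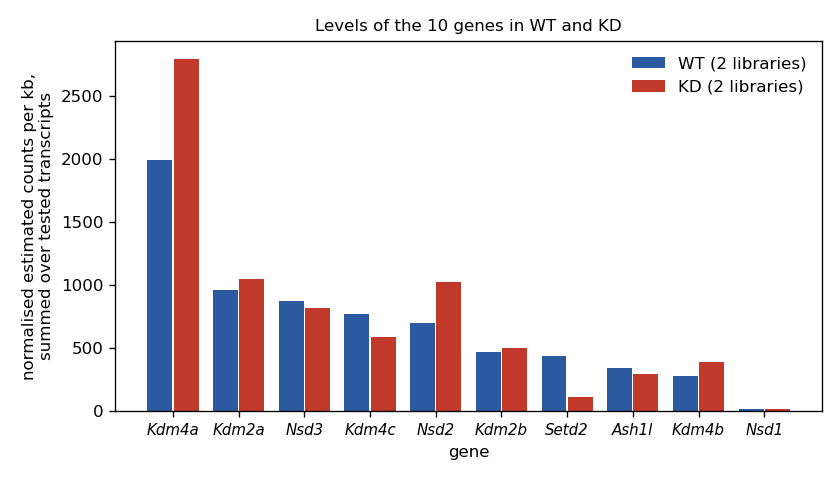
Level of each gene in WT (blue) and KD (red) in normalised estimated counts per kb, summed over its tested transcripts (y axis, from 0), with the genes ordered by the level in WT (x axis). Each bar is a group level computed from 2 libraries and has no error bar, because the covariance between transcripts is unknown. *Setd2* drops from 441 to 111 and *Kdm4a* climbs from 1996 to 2799.

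*Nsd2* encodes a dimethyltransferase of H3K36, and its 2 transcripts with the SET motif rose. Nsd2-203 (ENSMUST00000075812.10) was at 1679 normalised estimated counts in WT and 2859 in KD, a log2(fold change) of 0.77 (standard error 0.10, q = 0.0120). Nsd2-201 (ENSMUST00000058096.13) was at 1319 in WT and 2038 in KD, a log2(fold change) of 0.63 (standard error 0.11, q = 0.0160). For both, KD lay above WT with no overlap between libraries. Of the 31-base words of Nsd2-201, 0% occurred in no other tested transcript, against 32.4% for Nsd2-203. The separate level of Nsd2-201 therefore rests on how shared reads were divided. The 2 transcripts without the motif were not called: Nsd2-205 had a log2(fold change) of 0.18 (standard error 0.12, q = 0.0999) and Nsd2-204 one of −0.22 (standard error 0.17, q = 0.179). After centring on a trend with GC content, however, Nsd2-205 stood at 0.36 and was called (Wald q = 0.0208), which narrows the contrast with the transcripts that code for the motif. Per kb, transcripts with the motif made up 74.0% of the tested *Nsd2* level in WT and 81.8% in KD.

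The difference between transcripts with and without the motif was examined directly, in 28 pairs over 5 genes. Transcripts that share reads have correlated errors, so each interval used the sum of both standard errors, which is the largest error that any correlation allows. This interval was chosen after the values were seen. The 95% interval excluded 0 in 4 pairs, of which 3 were in *Nsd2*. After widening for 28 comparisons it excluded 0 in 1 pair, Nsd2-203 against Nsd2-204, with a difference of 0.98 on the log2 scale (widened interval 0.13 to 1.83). After centring on GC content, Nsd2-203 stood at 0.80 and Nsd2-204 at −0.03, which narrows that difference. The intervals were not computed on that scale, so whether this pair would still exclude 0 there was not tested. Nsd2-203 against Nsd2-205 differed by 0.59 (95% interval 0.16 to 1.02), and Nsd2-201 against Nsd2-204 by 0.84 (0.29 to 1.40). The fourth pair was Nsd3-204 against Nsd3-208, with a difference of −1.85 (−3.43 to −0.27).

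*Nsd3* was spread over 8 tested transcripts, and 0 of them were called by the likelihood ratio test. Its unadjusted p-value was under 0.05 for 3 of the 8, and for 11615 of all 34200 transcripts. The *Nsd3* transcript nearest to the threshold, Nsd3-203 (ENSMUST00000136107.8), codes for a short protein without the SET domain. It was at 1178 normalised estimated counts in WT and 924 in KD. The log2(fold change) of −0.35 (standard error 0.12) had q = 0.0580 in the likelihood ratio test and q = 0.0208 in the Wald test, and it was called when only transcripts with 100 or more counts were kept (q = 0.0341). Nsd3-206 and Nsd3-201 code for proteins of the same length, 1446 residues, and their estimates went in opposite ways, −1.08 (standard error 0.93) and 1.69 (standard error 3.11). Of the 31-base words of these transcripts, 0% and 2.94% occurred in no other tested transcript, so their separate levels are uncertain. The assignment of reads made up 99.8% of the variance behind the standard error for Nsd3-201 but 0.733% for Nsd3-206, whose error came from the spread between libraries (within-group standard deviation 0.93 on the log2 scale). The summed *Nsd3* level was 4291 in WT and 3717 in KD.

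*Ash1l*, a dimethyltransferase of the Trithorax group, had 2 transcripts that code for the same 2958 residues. Ash1l-201 was at 2338 normalised estimated counts in WT and 2157 in KD (log2(fold change) −0.12, standard error 0.21, q = 0.344), and Ash1l-202 was at 1604 and 1244 (−0.37, standard error 0.25, q = 0.264). Of the 31-base words of Ash1l-201, 0% were its own. *Nsd1* was measured through Nsd1-205, with 17.1 in WT and 18.1 in KD, and Nsd1-201, with 1.88 and 9.12. At these levels the 95% interval of the log2(fold change) ran from −1.05 to 1.21 for Nsd1-205 and from −2.39 to 6.43 for Nsd1-201, so a change of either sign was not detectable.

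**Figure D4:**
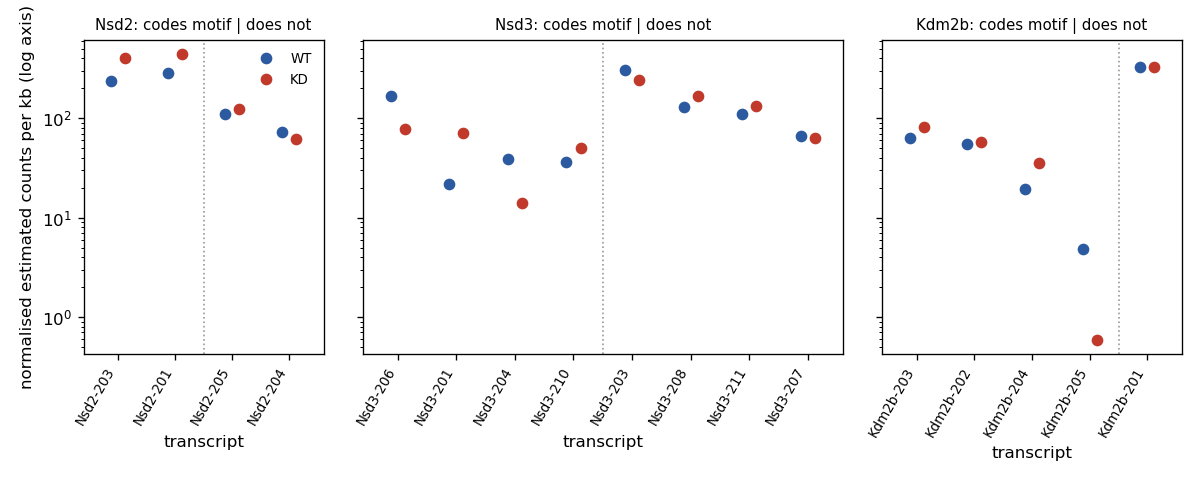
Levels in normalised estimated counts per kb (y axis, log scale) of each tested transcript (x axis) of *Nsd2*, *Nsd3* and *Kdm2b* in WT (blue) and KD (red), each point a group level from 2 libraries. Transcripts left of the dotted line code for the catalytic motif. Both *Nsd2* transcripts with the motif are higher in KD, and Kdm2b-201, without it, has the highest level of its gene.

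Of the 7 transcripts of the KDM4 demethylases, 4 were called. Among all transcripts 12.5% were called, and 21.4% among those with 100 or more counts. The difference from these shares was not tested. Of the 4 calls, 2 are *Kdm4a* transcripts with few words of their own, so they are not separate measurements. *Kdm4a* encodes a demethylase of H3K36me3 and H3K9me3. Kdm4a-204 (ENSMUST00000106406.8) was at 5789 normalised estimated counts in WT and 8463 in KD, with a log2(fold change) of 0.55 (standard error 0.08, q = 0.0154). Kdm4a-202 (ENSMUST00000097911.8) was at 2273 and 3322, with 0.55 (standard error 0.11, q = 0.0198). Both code for 1064 residues, and their libraries did not overlap between groups. Of the 31-base words of Kdm4a-204 and Kdm4a-202, 1.45% and 1.17% occurred in no other tested transcript, so their separate levels are uncertain. Kdm4a-201, which ends upstream of the others and codes for 1033 residues, was at 736 and 719.9 (−0.03, standard error 0.18, q = 0.264), with libraries that had to overlap. Kdm4a-203, which also codes for 1064 residues, was at 138 and 157 (0.19, standard error 0.54, q = 0.609). Its libraries had to overlap too.

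*Kdm4b* encodes an enzyme with the same substrates. Kdm4b-201 (ENSMUST00000025036.10) was at 1226 normalised estimated counts in WT and 1743 in KD, a log2(fold change) of 0.51 (standard error 0.10, q = 0.0269). In limma's moderated test its adjusted p-value was 0.0504, just above the threshold, and it was the only called member that this test did not call. Kdm4b-202 was at 55.4 in WT and 42.8 in KD (−0.37, standard error 1.37) and was not called, with libraries that had to overlap. *Kdm4c*, the third member of the family, moved in the other direction. Kdm4c-201 (ENSMUST00000030102.11), the only tested transcript of the gene, fell from 3230 to 2472, with a log2(fold change) of −0.39 (standard error 0.09, q = 0.0228) and no overlap between libraries. Centring on GC content moved it to −0.23 (Wald q = 0.0471).

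The KDM2 demethylases, which carry a zinc finger of the CXXC type that binds unmethylated CpG, had 0 called transcripts of 9 in the likelihood ratio test, the Wald test and the moderated test. An unadjusted likelihood ratio p-value under 0.05 was found for 3 of the 9, and for 11615 of all 34200 transcripts. With a minimum of 100 counts and q-values adjusted again, Kdm2a-202 (q = 0.0373) and Kdm2b-204 (q = 0.0450) were called, both as higher. That setting called 6440 of 18808 transcripts of the whole table. Kdm2a-202 held 92.7% of the summed *Kdm2a* counts in WT and was at 6374 normalised estimated counts in WT and 7021 in KD (log2(fold change) 0.14, standard error 0.08, q = 0.0632). Its libraries did not overlap between groups, and its 95% interval ran from −0.01 to 0.29. Kdm2b-201, which lacks the JmjC motif, was the most abundant *Kdm2b* transcript, at 1164 in WT and 1162 in KD. Kdm2b-204, with the motif, was at 98.8 and 180.4 (0.87, standard error 0.34, q = 0.0759). Transcripts with the motif made up 30.2% of the *Kdm2b* level per kb in WT and 34.8% in KD.

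In the deposited gene-level test, which combines the p-values of a gene's transcripts and carries no direction, the likelihood ratio test called 6 of the 10 genes, where it called 24.0% of all genes. They were *Nsd2* (q = 6.0e-05), *Setd2* (3.6e-04), *Kdm4a* (0.0012), *Kdm4c* (0.0128), *Kdm2b* (0.0369) and *Nsd3* (0.0395). The gene-level Wald test also called 24.0% of all genes and 6 of the members, 5 of them shared, with *Kdm4b* (Wald q = 1.4e-04, likelihood ratio q = 0.0621) in place of *Kdm2b* (Wald q = 0.561). The likelihood ratio test fits a separate variance to each model and can give small p-values without a difference in means. Of the 1115 transcripts of the whole table within 0.02 of a log2(fold change) of 0, 205 had a likelihood ratio p-value under 0.05 and 0 had such a Wald p-value, and Kdm2b-201, at −0.0031, is 1 of these 1115 transcripts. Among the *Kdm2b* transcripts, the smallest q-value in the likelihood ratio test was that of Kdm2b-204 (q = 0.0759), whose KD libraries lay above the WT libraries. The gene-level call carries no direction, and which transcripts it rests on was not tested.

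The other genes of the pathway were counted in 3 lists drawn up by gene name. The list of other H3K36 enzymes held *Setmar*, *Smyd2*, *Setd3*, *Setd5*, *Prdm9*, *Kdm4d*, *Kdm8*, *Riox1* and *Riox2*. Whether each of them acts on H3K36 was not tested. Of 17 transcripts of 9 genes listed as other H3K36 enzymes, 0 were higher and 1 was lower. It was a transcript of *Prdm9*, a methyltransferase of meiotic cells (ENSMUST00000147532.7, log2(fold change) −0.86, standard error 0.23, q = 0.0478). The other tested *Prdm9* transcripts were not called. They were ENSMUST00000167994.9, with the highest mean of the gene (−1.20, q = 0.452), and ENSMUST00000233295.1, which went the other way (1.93, q = 0.156). Of 61 transcripts of 21 genes for readers of H3K36 methylation, 2 were higher and 1 was lower. The higher ones were *Glyr1* ENSMUST00000115844.2 (0.58, standard error 0.10, q = 0.0187) and *Hdgf* (0.43, standard error 0.08, q = 0.0179). The lower one was *Zcwpw1* (−0.78, standard error 0.10, q = 0.0115). The other tested *Glyr1* transcript, ENSMUST00000023189.14, was at 0.08 (standard error 0.22) and was not called, with libraries that had to overlap. Of 34 transcripts of 18 genes for binding partners of the members, 2 were higher and 1 was lower. The higher ones were *Ncor1* ENSMUST00000069456.10 (0.73, standard error 0.18, q = 0.0420) and *Supt6*, an elongation factor that binds RNA polymerase II (0.31, standard error 0.08, q = 0.0317). The lower one was *Rnf2* ENSMUST00000076110.10, a ubiquitin ligase of Polycomb complexes (−0.51, standard error 0.08, q = 0.0172). The other tested *Ncor1* transcripts were not called. They were ENSMUST00000101066.9, with the highest mean of the gene (−0.07), ENSMUST00000101067.9 (−0.17) and ENSMUST00000037575.14 (0.83). Relative to *Actb*, *Hdgf* and *Supt6* took the opposite sign (−0.025 and −0.14). On that scale *Glyr1* ENSMUST00000115844.2 (0.13, Wald q = 0.589) and *Ncor1* ENSMUST00000069456.10 (0.27, Wald q = 0.387) were no longer called. In limma's moderated test the called transcripts of *Ncor1* (adjusted p = 0.0558), *Supt6* (0.0636) and *Prdm9* (0.0666) did not pass. That test called *Prdm9* ENSMUST00000167994.9 instead (adjusted p = 0.0224). The shares called in the 3 lists, 5.88%, 4.92% and 8.82%, stand beside 12.5% of all transcripts, with no test of the difference. With a minimum of 100 counts, 4 of 13, 11 of 52 and 9 of 32 transcripts were called, and on the *Actb* scale 2, 16 and 10 were, all of them lower. These settings also call more of the whole table, 6440 of 18808 transcripts with the minimum and 9196 of 34199 on the *Actb* scale. The median log2(fold changes) of the 3 lists were 0.11, 0.11 and 0.09.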

How the data were processed

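Polyadenylated RNA of 2 KD and 2 WT (Scrambled) NIH/3T3 libraries was compared, grouped by the condition in the labels, without covariates. The authors removed adapters with BBDuk, estimated counts with Kallisto and compared the groups with Sleuth. The index and the filter on low counts are not given in the sources used here. The deposited effects, standard errors and means are in natural log units of the estimated counts, which the authors scaled by a size factor per library and raised by 0.5. Other deposited columns hold variances on that scale. The deposited p-values and q-values are the authors' likelihood ratio and Wald tests, with Benjamini-Hochberg adjustment over all transcripts, and for genes they combine the transcripts. These are columns of the authors' own comparison, and they were used because the tables combine the libraries. The depth of each library is unknown, so no interval for counting error is given.

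Effects were converted to the log2 scale. A group level is the exponential of the mean plus or minus 0.5 times the effect, minus 0.5. Within-group variances were derived from the deposited variance over 4 libraries and differed from the sum of its deposited parts by at most 1.06e-13. Of the transcripts, 98.6% were matched with their version to GENCODE M21 (GRCm38). The members, lists, tests and the rule for named genes (all members, the called transcripts with the 3 largest rises and falls of each list, and *Actb*) were chosen with earlier results of these data known. Alternatives were the Wald test, limma's moderated test (limma 3.58.1, R 4.3.3), a minimum of 100 counts, and centring on GC content, on the median or on *Actb*, computed in Python 3.11.15.

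The moderated test was tested on simulated data with 200 changed of 34200 transcripts, in 10 draws. The simulation first written, with the variances of these data, was required to call most 2-fold changes and missed this: it called 42.9% of 2-fold and 1.6% of 1.41-fold changes, and 15.4% of its calls were false. A second simulation, written after that with larger changes and variances drawn from the fitted prior, called 75.7% of 4-fold and 22.4% of 2-fold changes, with 6.03% false. The moderated test is therefore weak for changes of the size seen here, may exceed its nominal false rate, and served only as an alternative.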

Additional observations from a re-analysis of the deposited data

How the results depend on the processing

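No paired analysis was possible because the deposited columns combine the 4 libraries and carry no replicate numbers, and leaving out each replicate was not run for the same reason. The knockdown of *Setd2* kept its direction and its call under all 6 alternatives, with log2(fold changes) from −2.45 to −1.89. The number of called member transcripts lay between 6 and 10 under the 6 alternatives and was 12 at a likelihood ratio q-value under 0.1 (9 higher, 3 lower). The share of all transcripts under 0.1 was not computed, so whether this count differs from the whole table was not tested. Relative to *Actb*, 7 were called with 0 higher and 7 lower, so that 5 of the 6 called members other than *Setd2* were no longer called. This alternative subtracts the rise of 1 transcript from every effect, and it turned the Wald calls over all transcripts from 3566 higher and 2667 lower to 404 higher and 8792 lower. Centring on the median, chosen after seeing the data, gave 2969 higher and 3143 lower, and 5 higher and 3 lower among the members. With the transcript of most counts in place of the sum, the *Kdm2b* gene level moved from a log2(fold change) of 0.12 to −0.0031, a reversal, and those of *Nsd1* from 0.52 to 0.08, *Ash1l* from −0.21 to −0.12, *Nsd2* from 0.54 to 0.77 and *Nsd3* from −0.21 to −1.08. Relative to *Actb*, *Hdgf* (−0.025) and *Supt6* (−0.14) reversed. For the other H3K36 enzymes (1 called), the Wald test called 2, the minimum of 100 counts 4 and the *Actb* scale 2. For the readers (3 called), these settings called 5, 11 and 16, GC centring 7 and median centring 5. For the binding partners (3 called), they called 6, 9 and 10, GC and median centring 6 each, and the moderated test 1. The moderated test also called 1 of the other H3K36 enzymes, with 0 shared calls. The cause of these changes was not tested. With a minimum of 100 counts, q-values were adjusted over 18808 instead of 34200 transcripts, and 6440 were called in place of 4266. Member genes called were 6, and 5 by at least 1 called transcript. Read assignment made up 84.4% and 70.5% of the variance for the *Ash1l* transcripts, but from 0.733% to 99.8% for those of *Nsd3* and from 32.9% to 87.5% for those of *Kdm2b*. The rest was the variance between libraries or, where larger, its trend over transcripts. The *Nsd1* transcripts were limited by low counts.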
